A study of Homo sapiens with 18 samples.

Results

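Hyaluronan genes were examined in lung cancer cells before and after TGFβ-induced EMT. The 9 genes encode the 3 hyaluronan synthases (HAS1, HAS2 and HAS3), 3 hyaluronidases (HYAL1, HYAL2 and HYAL3), the receptor CD44, and the matrix partners versican (VCAN) and link protein (HAPLN1). They were chosen by symbol among the 19849 genes of the deposited expression table, and all 9 had a row. The study compared parental cells of 3 human non-small cell lung cancer lines, A549, HCC827 and NCI-H358, with their TGFβ-induced mesenchymal derivatives (EMT). Each of the 6 groups was read on 3 Affymetrix U133 Plus 2.0 arrays, which makes 18.

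All groups were grown in RPMI1640 with 10% FBS and 4 mM glutamine. The mesenchymal derivatives of each line had also received 2 ng/ml TGFβ, per the labels for 3 weeks, and were moved to medium without it on the day before lysis. The methods give durations that vary between the lines. No gene was altered for these arrays. Each line is 1 established culture model, and its derivative is the whole treated population rather than a clone. The labels do not say whether the 3 arrays of a group came from separate cultures. The study describes them as separate biological samples made at the same time. The p-values therefore measure only the spread between these samples. In bulk RNA, fewer cells with a transcript and less transcript per cell cannot be told apart.

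Hyaluronan is a long, unbranched sugar polymer of the extracellular matrix. The HAS enzymes extrude it through the plasma membrane while building it from UDP-glucuronic acid and UDP-N-acetylglucosamine, and hyaluronidases cut it into shorter chains that are finished off in lysosomes. At the cell surface the polymer is held by CD44, and outside the cell it carries versican, a large chondroitin sulfate proteoglycan whose bond to hyaluronan is stabilised by link proteins. In lung, the polymer and versican form part of the loose matrix around airways and alveoli.

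HAS3 and VCAN changed in all 3 lines, so their promoters are shown first. Each is the 250 bases before the start site listed by RefSeq for GRCh38.p14, on the plus strand, written 5′ to 3′ with the GC box in capitals. The HAS3 window is chr16:69107290-69107539 and the VCAN window is chr5:83471494-83471743.
HAS3: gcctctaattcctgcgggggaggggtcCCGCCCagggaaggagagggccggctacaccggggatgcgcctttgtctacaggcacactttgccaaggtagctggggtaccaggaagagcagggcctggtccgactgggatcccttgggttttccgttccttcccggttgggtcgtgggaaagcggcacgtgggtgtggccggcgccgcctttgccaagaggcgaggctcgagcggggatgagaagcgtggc
VCAN: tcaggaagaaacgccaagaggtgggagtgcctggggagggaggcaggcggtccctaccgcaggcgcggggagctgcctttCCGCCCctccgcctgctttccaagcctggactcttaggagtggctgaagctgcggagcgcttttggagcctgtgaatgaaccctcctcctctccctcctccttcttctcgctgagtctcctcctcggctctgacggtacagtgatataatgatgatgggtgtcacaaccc

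The G and C content was 66% for HAS3 and 60.8% for VCAN. Each window held 1 copy of the GC box of SP factors (GGGCGG or its reverse complement CCGCCC), whose first base lay at -223 from the start site in HAS3 and at -170 in VCAN. This motif lay in 42.3% of 27305 promoters of the same length. The other motifs were searched on both strands too, and none of them lay in either window. They were the CAGGTG E-box of SNAI and ZEB factors (17.5% of promoters), the SMAD motif CAGACA (13.6%), the AP-1 site TGANTCA (6.6%) and the TATA box TATAAA (11.1%). Of the 8 genes with a promoter entry that was used, HYAL2 alone held the E-box, and no matches of different motifs overlapped. A match describes these letters only, and no binding was measured.

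Expression is given as log2 values normalized by RMA, so that a difference of 1 is a 2-fold change. Each gene is read by 1 probe set, and levels are compared between samples of the same gene only. Array medians lay between 6.31 and 6.47 and lower quartiles between 4.60 and 4.70. Within groups, the standard deviation of the log2 differences between arrays was 0.163 to 0.282. The EMT markers followed the labels. CDH1 (E-cadherin) fell by 5.81, 2.95 and 3.94 on the log2 scale in A549, HCC827 and NCI-H358. CDH2, VIM, ZEB1 and SNAI1 rose in each line. CDH1 ended in A549 at 3.27 to 3.76, below the lower quartile of any array. VIM began below it too, at 3.41 to 3.73 in parental HCC827 and 3.24 to 3.97 in parental NCI-H358. The sizes of these changes are therefore uncertain. The epithelial markers EPCAM, KRT19, KRT18 and KRT8 fell in each line, EPCAM by log2 changes of -3.03, -2.69 and -2.92 and KRT18 by -0.34, -1.50 and -1.35. KRT7 had a mean of 13.2 in either state of A549 and fell in the other lines. The lung lineage factor NKX2-1 was at 3.47 to 4.21 in A549, below the lower quartile, and at 7.37 to 9.85 in the other lines. The leukocyte marker PTPRC lay between 2.66 and 3.28 on all arrays. Among 7 leukocyte and endothelial markers, CD14 fell and CD68 rose in A549, CD68 fell and PECAM1 rose in HCC827, and none was called in NCI-H358. Their part in the results was not tested.

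In each line, 3 of the 9 hyaluronan genes changed upon EMT. VCAN rose and HAS3 fell in all 3 lines, HAS2 rose in A549, HYAL2 rose in HCC827 and HYAL1 fell in NCI-H358. HAS1, HYAL3, CD44 and HAPLN1 were called in no line. A gene was called at a Benjamini-Hochberg adjusted p below 0.05 over all genes, from 1 limma fit of the 18 arrays, and all adjusted p-values below come from that fit.

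**Figure D1:**
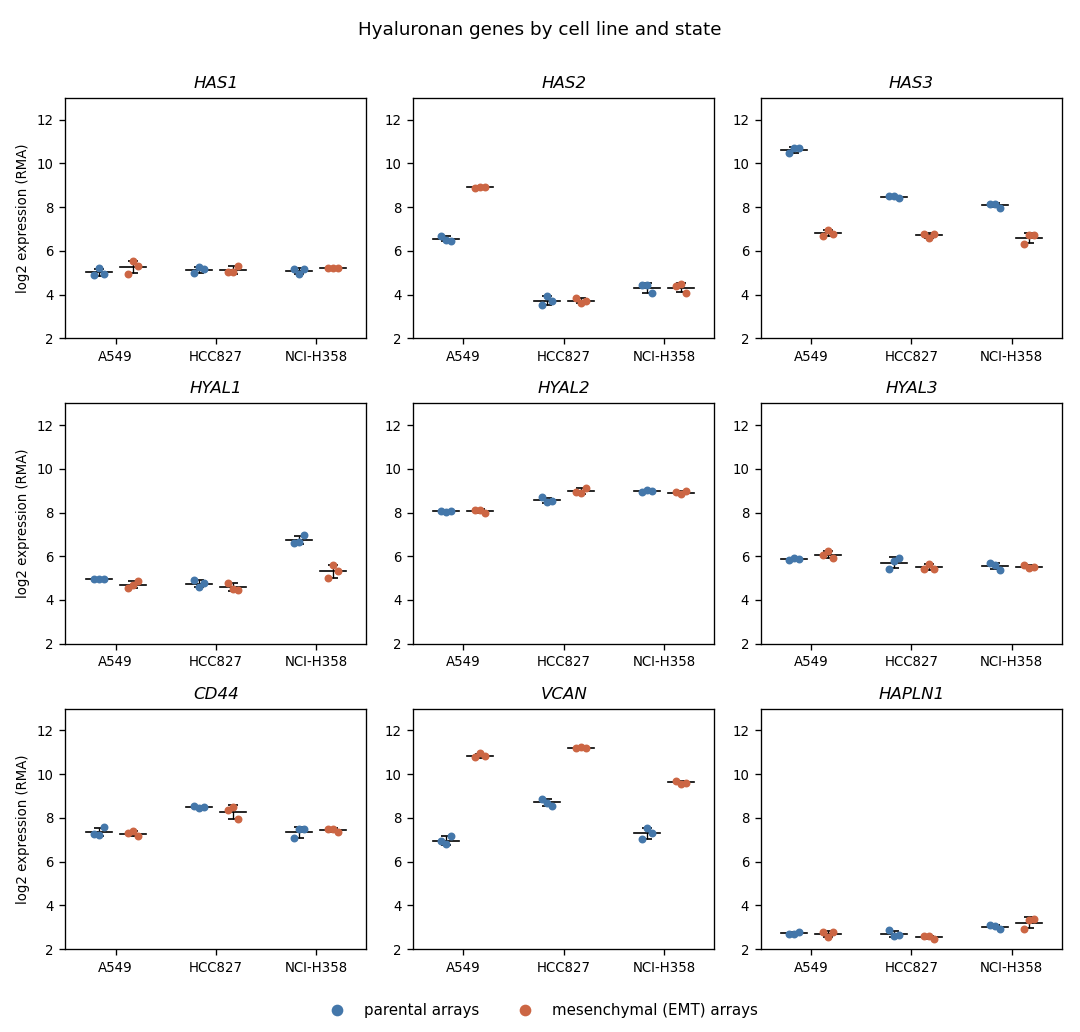
Log2 expression (RMA) of the 9 hyaluronan genes in parental (blue) and mesenchymal (orange) arrays of each line. Points are single arrays, lines are means and bars are 1 SD (n = 3). The HAS3 points fall and the VCAN points rise in all 3 lines, and the HAS2 points rise in A549.

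These counts were close to or below the background. In A549, 43.4% of all genes were called, 16.6% higher and 26.8% lower, against 3 of 9 members (2 higher and 1 lower). In HCC827, 45.8% of all genes were called, 20.8% higher and 25% lower, against 3 of 9 members (2 higher and 1 lower). In NCI-H358, 41.4% of all genes were called, 21.5% higher and 19.8% lower, against 3 of 9 members (1 higher and 2 lower). The split over all genes depended on the scaling. With each array centred on its own median, the share of calls that were higher went from 38.3% to 48.9% in A549, from 45.4% to 53.7% in HCC827 and from 52% to 57.2% in NCI-H358, so that higher calls outnumbered lower ones in HCC827. For the members, the median log2 change in A549, HCC827 and NCI-H358 was 0.019, -0.14 and 0.0088, beside -0.021, 0.0051 and 0.015 over all genes.

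The larger changes were few. At the thresholds of the study, an adjusted p below 1e-05 and more than a 5-fold change, 3 members passed in A549 (HAS2, HAS3 and VCAN), where 1.9% of all genes did. VCAN passed alone in HCC827, where 2.95% of all genes did, and 0 of 9 members passed in NCI-H358, where 2.17% of all genes did. With regard to all 3 lines together, 1 member was higher in each (4.31% of all genes) and 1 was lower in each (6.14% of all genes).

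HAS3, the synthase known for making shorter hyaluronan chains, showed the largest decrease of the 9 genes in each line. In A549, its log2 level was 10.48, 10.69 and 10.71 on the parental arrays and 6.70, 6.97 and 6.79 on the mesenchymal arrays. The groups lay far apart. The change was -3.80 (SE 0.11), a 13.9-fold decrease (adjusted p = 2.11e-14). In HCC827, the parental arrays were at 8.51, 8.50 and 8.40 and the mesenchymal arrays at 6.79, 6.58 and 6.78. In NCI-H358, they were at 8.13, 8.16 and 7.98 and at 6.34, 6.72 and 6.73. Every parental array again lay above every mesenchymal array of its line. The HCC827 decrease was 3.37-fold (log2 change -1.75, adjusted p = 3.9e-10). The NCI-H358 decrease was 2.82-fold (log2 change -1.50, adjusted p = 3.83e-09). Over all genes, the parental and mesenchymal arrays did not overlap for 52.4%, 51.2% and 51.6% in A549, HCC827 and NCI-H358.

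The lines began at different HAS3 levels and ended at like ones. The order was parental A549, parental HCC827, parental NCI-H358 and then the 3 mesenchymal groups, whose arrays overlapped from one neighbour to the next. Relative to parental A549, the log2 level was -2.15 for HCC827 and -2.53 for NCI-H358 parental cells (adjusted p = 1.32e-11 and 1.27e-12). Parental NCI-H358 was at -0.38 relative to parental HCC827 (adjusted p = 0.00615). Between mesenchymal groups the log2 differences were -0.10 for HCC827 against A549, -0.23 for NCI-H358 against A549 and -0.12 for NCI-H358 against HCC827 (adjusted p = 0.437, 0.0775 and 0.368). The second of these passed with arrays centred on their median (-0.30, adjusted p = 0.0196) and without mesenchymal A549 array 1 or mesenchymal NCI-H358 array 2 or 3 (adjusted p = 0.0496, 0.0489 and 0.0424). A p-value above the threshold does not show that levels are equal. The decrease in A549 was larger than that in HCC827 by 2.05 and than that in NCI-H358 by 2.30 on the log2 scale (adjusted p = 8.92e-09 and 1.96e-09). The decreases in HCC827 and NCI-H358 differed by 0.25, with a 95% interval from -0.066 to 0.57 (adjusted p = 0.216).

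In the RefSeq annotation, the protein-coding gene before HAS3 on chromosome 16 is CDH1, the E-cadherin gene, which fell in all 3 lines as given above. HAS3 overlaps TANGO6, CHTF8 and DERPC there. TANGO6, included here for its position, had log2 changes of -0.88, 0.040 and 0.21 in the order A549, HCC827, NCI-H358 (adjusted p = 9.34e-08, 0.74 and 0.0406). CHTF8 had log2 changes of -0.20, -0.48 and -0.039 in the same order (adjusted p = 0.0504, 7.62e-05 and 0.767). UTP4, the next gene, fell in A549 and HCC827 and rose in NCI-H358 (log2 changes -0.48, -0.46 and 0.27, adjusted p = 0.000205, 0.00026 and 0.0183).

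HAS2, the synthase known for long hyaluronan chains, rose in A549. Its log2 level there was 6.68, 6.51 and 6.47 on the parental arrays and 8.86, 8.93 and 8.94 on the mesenchymal arrays, with no overlap. The increase was 5.12-fold, a log2 change of 2.35 (SE 0.13, adjusted p = 9.86e-11). In HCC827, the parental arrays were at 3.51, 3.94 and 3.72 and the mesenchymal arrays at 3.84, 3.61 and 3.72. In NCI-H358, the values were 4.43, 4.46 and 4.06 in parental and 4.39, 4.49 and 4.10 in mesenchymal cells. The groups overlapped in both lines, and all of these arrays lay below the lower quartile of any array. The files give no detection call, so that a level above background is not established there. For HCC827 the log2 change was -0.00044 (95% interval -0.27 to 0.27), and for NCI-H358 it was 0.0088 (95% interval -0.26 to 0.28).

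The change of HAS2 differed between A549 and both other lines, by -2.36 for HCC827 and -2.35 for NCI-H358 on the log2 scale (adjusted p = 1.23e-08 and 1.29e-08). Parental A549 already held more HAS2 than the others, which were at -2.83 (HCC827) and -2.24 (NCI-H358) relative to it (adjusted p = 3.22e-12 and 6.01e-11). In mesenchymal cells these differences were -5.18 and -4.58 (adjusted p = 1.2e-15 and 4.74e-15). In A549, 1 synthase gene thus rose while another fell. The genes on either side of HAS2, SNTB1 and ZHX2, also rose in A549 (log2 changes 0.62 and 1.10, adjusted p = 0.000319 and 5.01e-08) and fell in HCC827 (log2 changes -1.50 and -0.35, adjusted p = 9.71e-09 and 0.00597). Only ZHX2 was called in NCI-H358, lower by a log2 change of -0.30 (adjusted p = 0.0162). HAS1 was read at 4.90 to 5.52 over all 18 arrays, below the median of each and without a detection call. Its neighbouring groups overlapped throughout the order of levels, and its log2 change was 0.24, -0.0019 and 0.14 in A549, HCC827 and NCI-H358 (adjusted p = 0.154, 0.993 and 0.46). Within NCI-H358 the HAS1 arrays of the states did not overlap (highest parental 5.16, lowest mesenchymal 5.21), whereas those of the other lines did.

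**Figure D2:**
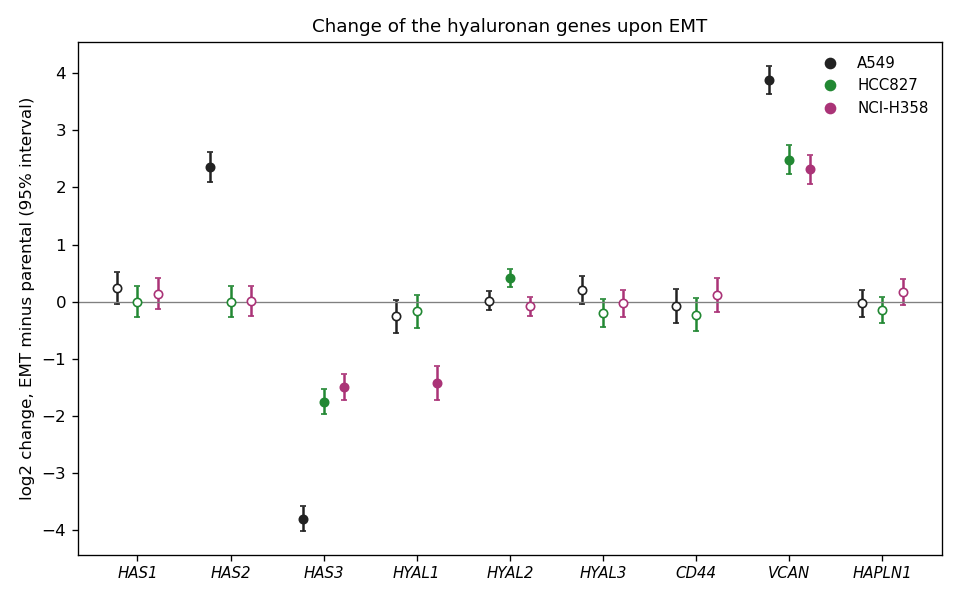
Log2 change (mesenchymal minus parental) of each gene in A549 (black), HCC827 (green) and NCI-H358 (purple), with 95% intervals from the limma fit. Filled points passed an adjusted p of 0.05, as HAS3 and VCAN did in all 3 lines, and open points did not.

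Among the hyaluronidases, HYAL1 and HYAL2 were each called in 1 line. HYAL1, an enzyme of the lysosome, stood at 6.59, 6.67 and 6.96 in parental NCI-H358 cells and at 5.02, 5.61 and 5.32 in their mesenchymal derivatives. The groups did not overlap, and the decrease was 2.68-fold (log2 change -1.42, SE 0.14, adjusted p = 2.21e-07). In A549, its level was 4.96, 4.94 and 4.96 in parental and 4.54, 4.70 and 4.85 in mesenchymal cells. These arrays did not overlap, but the log2 change of -0.26 did not pass the threshold (adjusted p = 0.15). It passed with a separate fit for the line (adjusted p = 0.0431). In HCC827, HYAL1 ranged from 4.58 to 4.91 in parental and from 4.44 to 4.79 in mesenchymal cells (log2 change -0.17, adjusted p = 0.359). The change in NCI-H358 differed from that in A549 by -1.16 and from that in HCC827 by -1.25 (adjusted p = 0.000129 and 7.36e-05). The HYAL1 levels of A549 and HCC827 lay around the lower quartiles of the arrays, 4.60 to 4.70. A level above background is not established there, so that a decrease in these lines could be missed. Parental NCI-H358 cells held the highest HYAL1 level, 1.78 above A549 and 1.99 above HCC827 (adjusted p = 5.06e-09 and 1.84e-09). Their derivatives came next, still 0.62 and 0.74 above those of A549 and HCC827 (adjusted p = 0.000907 and 0.000216).

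HYAL2, which is anchored at the cell surface, was at 8.70, 8.48 and 8.51 in parental HCC827 and at 8.93, 8.89 and 9.12 in mesenchymal HCC827 cells. The arrays did not overlap and the increase was small, 1.33-fold (log2 change 0.42, SE 0.077, adjusted p = 0.000215). In A549 and NCI-H358, the parental and mesenchymal arrays overlapped, at means of 8.05 and 8.07 and of 8.99 and 8.91 (log2 changes 0.019 and -0.084, adjusted p = 0.876 and 0.444). The change in HCC827 exceeded that in A549 by 0.40 (adjusted p = 0.00668), and that in NCI-H358 differed from HCC827 by -0.50 (adjusted p = 0.00135). A549 had the lowest HYAL2 level in either state. Parental HCC827 and NCI-H358 lay 0.51 and 0.93 above it (adjusted p = 1.88e-05 and 9.36e-09), and their derivatives lay 0.90 and 0.83 above mesenchymal A549 (adjusted p = 1.75e-08 and 4.25e-08).

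HYAL3, a member of the same family, passed in no line. It was read below the median of every array, without a detection call. Its group means lay between 5.51 in mesenchymal HCC827 and 6.08 in mesenchymal A549, with log2 changes of 0.20, -0.20 and -0.033 in A549, HCC827 and NCI-H358 (adjusted p = 0.177, 0.183 and 0.869). The A549 arrays did not overlap between the states, whereas the arrays of the other lines did. Mesenchymal A549 held more HYAL3 than mesenchymal HCC827 and NCI-H358, which lay at -0.56 and -0.55 relative to it (adjusted p = 0.000389 and 0.000445). HYAL3, HYAL1 and HYAL2 neighbour each other on chromosome 3.

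CD44, the main cell-surface receptor for hyaluronan, passed in no line. In A549, it was at 7.28, 7.22 and 7.58 in parental and 7.30, 7.39 and 7.15 in mesenchymal cells. In HCC827, it was at 8.56, 8.43 and 8.51 and at 8.38, 8.51 and 7.93. In NCI-H358, it was at 7.06, 7.48 and 7.48 and at 7.51, 7.51 and 7.36. The states overlapped in every line, and the HCC827 arrays of either state lay above those of the other lines. The 95% interval of the log2 change was -0.38 to 0.22 for A549, -0.52 to 0.071 for HCC827 and -0.18 to 0.41 for NCI-H358. The CD44 signal was highest in HCC827, 1.14 above A549 in parental cells and 0.99 above it in mesenchymal cells (adjusted p = 1.74e-06 and 9.11e-06). NCI-H358 lay below HCC827, at log2 differences of -1.16 and -0.82 in the respective states (adjusted p = 1.68e-06 and 8.18e-05). The CD44 transcript is spliced into many variants. Which of them this probe set reads was not checked, so that the levels are those of its target only, and other CD44 probe sets were not analysed here.

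VCAN showed the largest increase of the 9 genes in each line. In A549, its log2 level was 6.93, 6.78 and 7.18 on the parental arrays and 10.78, 10.95 and 10.81 on the mesenchymal arrays. This was a 14.7-fold increase (log2 change 3.88, SE 0.12, adjusted p = 6.78e-14). In HCC827, VCAN went from 8.88, 8.69 and 8.56 to 11.18, 11.22 and 11.21. In NCI-H358, it went from 7.04, 7.55 and 7.31 to 9.68, 9.56 and 9.61. No mesenchymal array reached down to a parental array of its line. The HCC827 increase was 5.61-fold (log2 change 2.49, adjusted p = 1.65e-11). The NCI-H358 increase was 4.997-fold (log2 change 2.32, adjusted p = 5.2e-11), just short of the study's 5-fold threshold.

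The increase of VCAN was larger in A549 than elsewhere. The log2 change in HCC827 differed from it by -1.39 and that in NCI-H358 by -1.56 (adjusted p = 3.3e-06 and 9.47e-07). HCC827 and NCI-H358 differed by -0.17, with a 95% interval from -0.52 to 0.19 (adjusted p = 0.495). The highest level was that of mesenchymal HCC827, followed without overlap by mesenchymal A549, mesenchymal NCI-H358 and parental HCC827. Parental NCI-H358 and parental A549 came last and their arrays overlapped. The log2 difference between these last groups was 0.33 (adjusted p = 0.0237), and its call was lost without parental A549 array 1 or 2 (adjusted p = 0.0625 and 0.126) or parental NCI-H358 array 2 or 3 (0.153 and 0.0557). Parental HCC827 lay 1.75 above parental A549 (adjusted p = 8.87e-10). Which versican splice forms the probe set reads was not checked.

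HAPLN1, the link protein gene, lies next to VCAN on chromosome 5 and passed in no line. It was read at 2.47 to 3.37 over the 18 arrays, below the lower quartile of each. Its log2 change was -0.030, -0.14 and 0.17 in A549, HCC827 and NCI-H358 (adjusted p = 0.858, 0.327 and 0.245), and the states overlapped in each line. At such low levels, the lack of a call says little about the gene.

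Tests of the differences between lines called 4 of 9 members for HCC827 against A549 (42.2% of all genes), 4 of 9 for NCI-H358 against A549 (42.8%) and 2 of 9 for NCI-H358 against HCC827 (37.9%). HAS2, HAS3 and VCAN were in the first and second of these, with the larger change in A549 each time, and HYAL1 and HYAL2 made up the rest. Without the array numbered 1 of mesenchymal NCI-H358, 4 members were called for NCI-H358 against HCC827, with HAS3 and HAPLN1 added. The comparisons with A549 share its 6 arrays. For levels in parental cells, 5 of 9 members differed between HCC827 and A549 (57.1% of all genes), 7 of 9 between NCI-H358 and A549 (57.9%) and 7 of 9 between NCI-H358 and HCC827 (52.6%). The count for NCI-H358 against A549 fell to 4 without parental A549 array 2, when HYAL3, VCAN and HAPLN1 were no longer called. In mesenchymal cells, 5 of 9 (56.6%), 6 of 9 (58.8%) and 5 of 9 (52.6%) differed in the same order.

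The rest of the pathway was followed in a list of 47 genes, all of which were found in the table. In A549, 16 rose, 7 fell and 24 were not called, with a median log2 change of 0.099. In HCC827, 13 rose and 11 fell (median 0.074), and in NCI-H358, 14 rose and 8 fell (median 0.085). The called shares, 23, 24 and 22 of 47, were near those of all genes given above. At the study's thresholds 3, 6 and 3 of 47 passed in A549, HCC827 and NCI-H358, beside 1.9%, 2.95% and 2.17% of all genes. Genes of the list named below were those past these thresholds in at least 1 line, and the others were chosen after their values were seen.

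**Figure D3:**
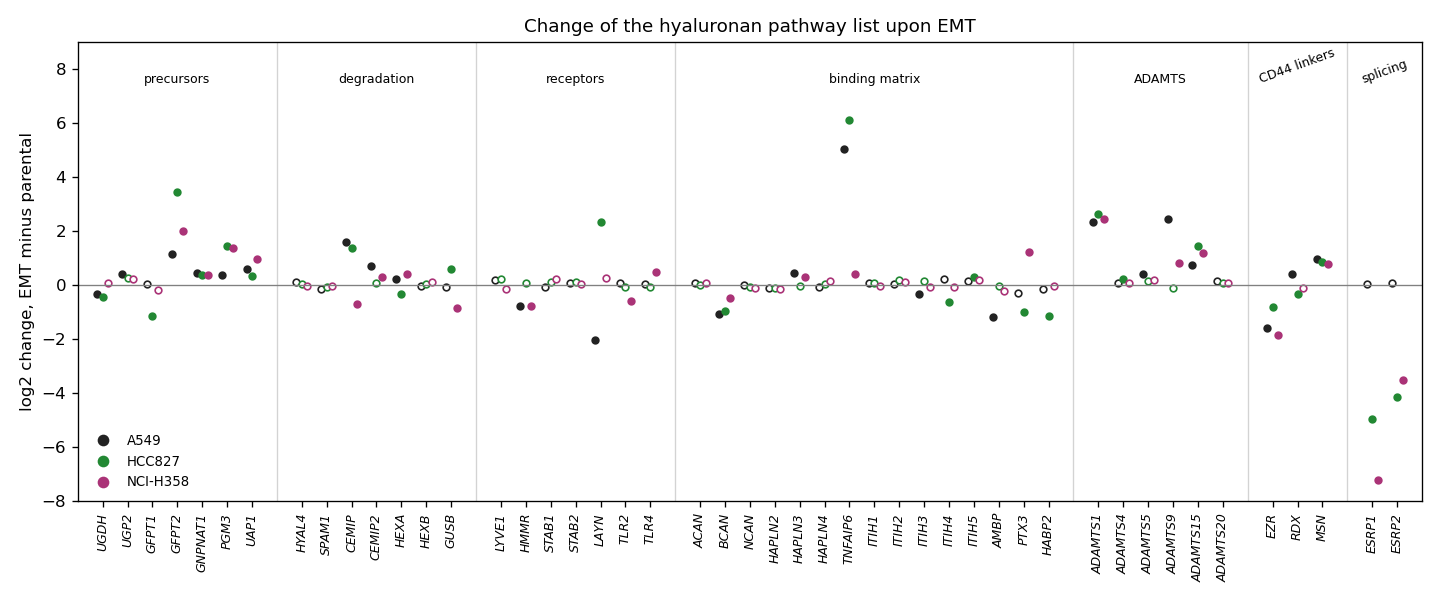
Log2 change (mesenchymal minus parental) of the 47 pathway genes, by function, in A549 (black), HCC827 (green) and NCI-H358 (purple). Filled points passed an adjusted p of 0.05. TNFAIP6 in A549 and HCC827 stands highest, at 5.04 and 6.11, and ESRP1 in NCI-H358 lowest, at -7.20.

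Of the 7 enzymes that supply the UDP-sugars for hyaluronan, 5 rose and 1 fell in A549, 4 rose and 2 fell in HCC827, and 4 rose and 0 fell in NCI-H358. Over all genes, 16.6%, 20.8% and 21.5% were higher and 26.8%, 25% and 19.8% lower in these lines, and these shares stand beside each count of the list below. GFPT2, which makes glucosamine-6-phosphate from fructose-6-phosphate and glutamine, rose in every line. Its mean log2 level went from 8.80 to 9.98 for A549, from 6.08 to 9.53 for HCC827 and from 7.62 to 9.63 for NCI-H358. These were increases of 2.25-fold, 10.9-fold and 4.03-fold (adjusted p = 1.1e-07, 7.57e-14 and 9.02e-11). The later enzymes of the same route to UDP-N-acetylglucosamine, GNPNAT1, PGM3 and UAP1, also rose in all 3 lines, with log2 changes of 0.46, 0.40 and 0.59 for A549, 0.39, 1.47 and 0.34 for HCC827, and 0.39, 1.39 and 0.96 for NCI-H358. The paralog of GFPT2, GFPT1, fell in HCC827 (log2 change -1.13, adjusted p = 1.52e-08) and was not called in the other lines. UGDH, which makes UDP-glucuronic acid, fell in A549 and HCC827 by 0.33 and 0.43 on the log2 scale (adjusted p = 0.00652 and 0.000765). In A549 and HCC827, then, UGDH fell while GFPT2, GNPNAT1, PGM3 and UAP1 rose.

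The other degrading proteins and lysosomal glycosidases gave mixed counts, with 3 of 7 higher in A549, 2 higher and 1 lower in HCC827, and 2 higher and 2 lower in NCI-H358. CEMIP, a protein needed for hyaluronan breakdown at the cell surface, rose in A549 and HCC827 (log2 changes 1.60 and 1.37, adjusted p = 3.93e-08 and 2e-07) but fell in NCI-H358 (log2 change -0.69, adjusted p = 0.000453). Its parental arrays were at 4.31 to 4.65 in A549 and 4.56 to 4.80 in HCC827, and at 9.08 to 9.35 in NCI-H358. The A549 and HCC827 levels lay around the lower quartiles of the arrays, which leaves the size of these increases uncertain. The table lists CEMIP under its older symbol KIAA1199. Among 7 other receptors, 2 fell in A549, 1 rose in HCC827, and 1 rose and 2 fell in NCI-H358. The receptor LAYN (layilin) was at 7.40, 7.46 and 7.32 in parental and 5.52, 4.99 and 5.55 in mesenchymal A549 cells. In HCC827 it was at 6.06, 6.20 and 6.32 and at 8.53, 8.57 and 8.55. LAYN thus fell in A549 (log2 change -2.04, adjusted p = 2.8e-06) and rose in HCC827 (log2 change 2.36, adjusted p = 3.66e-07), a difference of 4.40 (adjusted p = 2.06e-08). In NCI-H358 its states overlapped (log2 change 0.27, adjusted p = 0.432), and without the array numbered 3 of mesenchymal NCI-H358 the change was 0.64 (adjusted p = 0.0117).

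Of 15 other binding proteins and coat partners, 2 rose and 3 fell in A549, 2 rose and 4 fell in HCC827, and 3 rose and 1 fell in NCI-H358. BCAN was called lower in all 3 lines. Its mean went from 7.59 to 6.54 in A549, from 7.63 to 6.66 in HCC827 and from 7.64 to 7.18 in NCI-H358. TNFAIP6 (TSG-6), which links proteins to hyaluronan, had the largest increases. It was at 5.89, 5.98 and 5.63 in parental and at 10.86, 10.82 and 10.95 in mesenchymal A549 cells. In HCC827 it was at 3.00, 3.13 and 2.90 and at 9.12, 9.05 and 9.20. The groups lay far apart, and the increases were 32.9-fold in A549 and 69.2-fold in HCC827 (adjusted p = 3.21e-15 and 3.45e-16). The parental HCC827 arrays lay below the lower quartile of any array, so that a level above background is not established there and the size of that fold is uncertain. NCI-H358 cells had 3.37, 2.97 and 2.91 in the parental and 3.69, 3.31 and 3.48 in the mesenchymal state, with overlap and likewise below that quartile. The log2 change of 0.41 passed there (adjusted p = 0.0124), but the call was lost without parental array 2 or 3 or mesenchymal array 1 (adjusted p = 0.057, 0.0718 and 0.0763), with a separate fit for the line (0.0522) and with the methods' t-test (0.174). The change in NCI-H358 differed from those in A549 and HCC827 by -4.63 and -5.70 (adjusted p = 1.81e-12 and 4.13e-13).

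**Figure D4:**
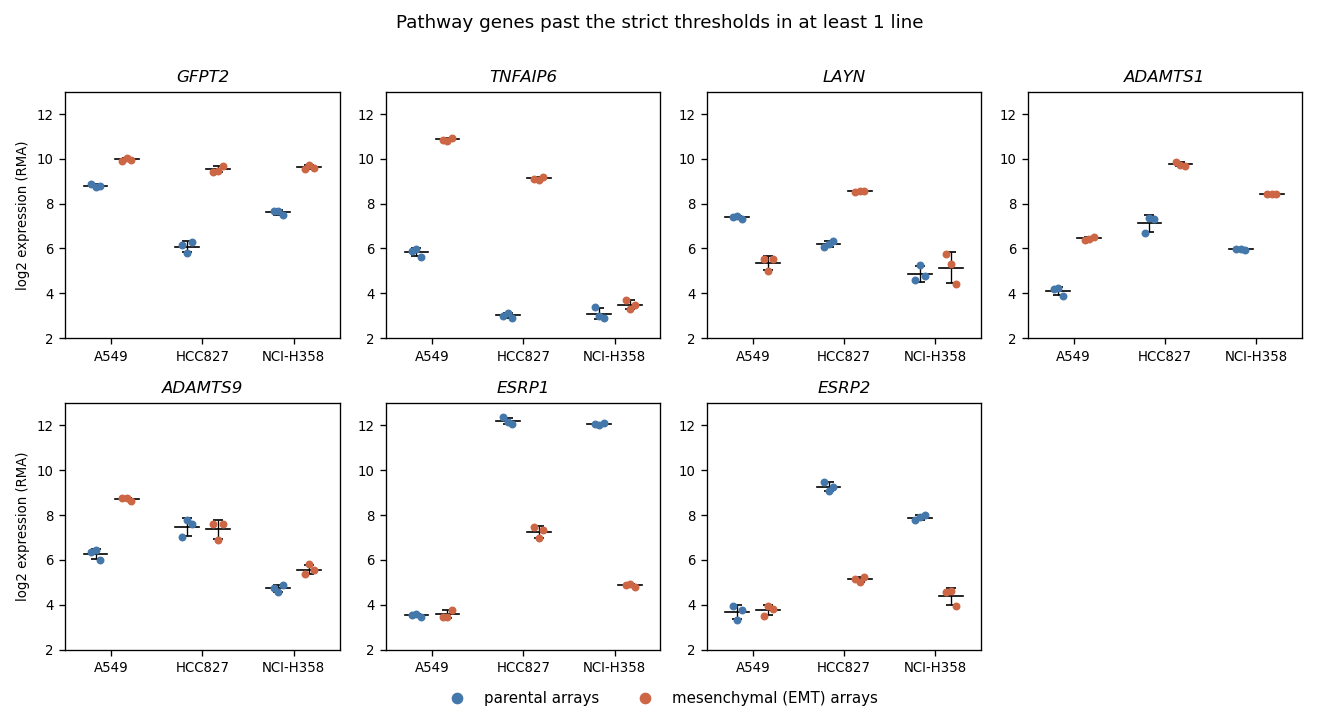
Log2 expression (RMA) of the 7 pathway genes past the study's thresholds in at least 1 line, in parental (blue) and mesenchymal (orange) arrays. Points are single arrays, lines are means and bars are 1 SD (n = 3). LAYN moves in opposite directions in A549 and HCC827, and ESRP1 and ESRP2 drop in HCC827 and NCI-H358 from high parental levels.

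Of the 6 ADAMTS proteases that can cleave versican, 4 rose in A549 and 3 in each of the other lines, and 0 fell, beside the shares of all genes higher (16.6%, 20.8% and 21.5%) and lower (26.8%, 25% and 19.8%) in the 3 lines. ADAMTS1 was at 4.19, 4.25 and 3.90 in parental and 6.37, 6.44 and 6.52 in mesenchymal A549 cells. In HCC827 it went from 6.69, 7.36 and 7.29 to 9.87, 9.72 and 9.70, and in NCI-H358 from 5.98, 5.98 and 5.95 to 8.44, 8.42 and 8.43. The states did not overlap in any line, and the increases were 5.05-fold, 6.27-fold and 5.49-fold (adjusted p = 2.39e-10, 3.2e-11 and 1.05e-10). The parental A549 arrays lay below the lower quartile of any array, which leaves the size of the first fold uncertain. ADAMTS15 rose in all 3 lines too (log2 changes 0.77, 1.46 and 1.19). The A549 count includes ADAMTS5, at 2.97 to 3.29 in parental and 3.43 to 3.71 in mesenchymal cells. These arrays lay below the lower quartile of any array, so that a level above background is not established. The HCC827 count includes ADAMTS4, whose mean moved only from 5.18 to 5.42. ADAMTS9 went from a mean of 6.25 to 8.71 in A549 (log2 change 2.46, adjusted p = 3e-08) and from 4.73 to 5.57 in NCI-H358 (log2 change 0.84, adjusted p = 0.00282), and was not called in HCC827 (log2 change -0.11, adjusted p = 0.721). Accordingly VCAN, ADAMTS1 and ADAMTS15 were higher in all 3 lines.

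Among the 3 proteins that tie the CD44 tail to actin, 2 rose and 1 fell in A549, 1 rose and 2 fell in HCC827, and 1 rose and 1 fell in NCI-H358. EZR (ezrin) fell, with log2 changes of -1.58, -0.81 and -1.83 in A549, HCC827 and NCI-H358, and MSN (moesin) rose, with 0.98, 0.87 and 0.80 (largest adjusted p of the 6 tests 0.000152). RDX (radixin) rose in A549 and fell in HCC827, and was not called in NCI-H358 (log2 changes 0.40, -0.33 and -0.096, adjusted p = 2.53e-05, 0.000158 and 0.229). ESRP1 and ESRP2, epithelial splicing factors known to favour CD44 variant exons, fell in HCC827 and NCI-H358. ESRP1 was at 12.35, 12.15 and 12.08 in parental and 7.45, 6.96 and 7.32 in mesenchymal HCC827 cells. In NCI-H358 it went from 12.06, 12.03 and 12.10 to 4.89, 4.92 and 4.77. These were decreases of 30.9-fold and 147-fold (adjusted p = 1.74e-15 and 1.01e-16). The mesenchymal NCI-H358 arrays lay just above the lower quartile, which leaves the size of the 147-fold decrease uncertain. ESRP2 fell 17.6-fold and 11.5-fold in the same lines (adjusted p = 3.94e-12 and 4.02e-11), ending in NCI-H358 at 4.56, 4.60 and 3.95, near or below the lower quartile. In A549 both genes were low in either state, at means of 3.53 and 3.57 for ESRP1 and of 3.68 and 3.76 for ESRP2, below the lower quartile of any array. The usage of CD44 exons was not measured by these values.

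The genes whose log2 values followed those of HAS2, HAS3 or VCAN most closely over the 18 arrays are given as a description, since the arrays share the lines and states. For HAS2 they were KRT222, GRAMD1B and GREM1, with Pearson r of 0.989, 0.987 and 0.986. GREM1, which encodes the BMP antagonist gremlin, had log2 changes of 3.30, 0.037 and 0.22 in A549, HCC827 and NCI-H358. For HAS3 they were GPX2, CFD and C6orf99, with r of 0.975, 0.974 and 0.973. GPX2, a glutathione peroxidase, changed by -5.42, -1.80 and -1.51 in the 3 lines. For VCAN they were TPST1, NRIP3 and ADAMTS6, with r of 0.986, 0.978 and 0.976. ADAMTS6, a protease of the ADAMTS family outside the list above, changed by 5.56, 3.23 and 3.11. Between HAS3 and VCAN themselves r was -0.825, and between HAS2 and HAS3 it was 0.0975.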

How the data were processed

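Total RNA of 18 cell samples, 3 for each of 6 groups, was measured on Affymetrix U133 Plus 2.0 arrays. The authors normalized the arrays by RMA, as the submitters' processing notes also name, and deposited log2 values of 19849 genes, each read by 1 probe set. How that probe set was chosen, its annotation version and its genome build are not given in the sources used here. The expression values therefore carry no coordinates, and those of the promoters are RefSeq's for GRCh38.p14. Samples were grouped by their labels, and 0 columns had no sample. RefSeq's table held 19326 of the gene IDs and gave the promoters. The array number limits the precision.

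The deposited values were fitted by lmFit and eBayes of limma 3.58.1 (R 4.3.3) for all 6 groups together, without covariates. Contrasts were mesenchymal minus parental within each line, differences of these between lines, and lines against each other within a state. A call needed an adjusted p below 0.05 over all genes. The steps were tested on simulated data. Alternatives were an adjusted p below 0.01, more than a 2-fold change in addition, the study's thresholds, separate fits, an intensity trend and robust variance. Further ones were the methods' t-test, a filter on dim probe sets, median centring and each array left out in turn. That t-test is the general one of the study's methods, which name limma for the arrays.

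The members and lists were chosen with earlier results of these data known. Named genes were the 9 members, pathway genes past the study's thresholds in at least 1 line, ESRP1 and ESRP2, the EMT markers CDH1, CDH2, VIM, ZEB1 and SNAI1, and the 3 genes closest by Pearson r to each member past those thresholds. Others were chosen after their values were seen. Other assays of the study were not analysed here.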

Additional observations from a re-analysis of the deposited data

Results flagged for a closer look

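The change upon EMT was compared between lines by limma contrasts, called at an adjusted p below 0.05 over all genes. It differed for 4 of the 9 hyaluronan genes for HCC827 against A549, 4 for NCI-H358 against A549 and 2 for NCI-H358 against HCC827. Over all genes, 42.2%, 42.8% and 37.9% differed in the same comparisons, so that these counts were near or below the background. All values here are log2 differences of the change, and each adjusted p is from the same limma fit. Some rest on levels below the lower quartile of any array, where a level above background is not established. These included ESRP1 and ESRP2 in A549, HAS2 in HCC827 and NCI-H358, and TNFAIP6 in parental HCC827 and in NCI-H358. HYAL1 in A549 and HCC827 lay around the lower quartiles.

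For HCC827 minus A549, the difference was -2.36 for HAS2, 2.05 for HAS3, 0.40 for HYAL2 and -1.39 for VCAN. Of the 7 pathway genes past the study's thresholds in at least 1 line, it was 2.28 for GFPT2, 4.40 for LAYN, 1.07 for TNFAIP6, -2.57 for ADAMTS9, -4.99 for ESRP1 and -4.21 for ESRP2. The highest adjusted p among these was 0.00668, that of HYAL2.

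For NCI-H358 minus A549, the difference was -2.35 for HAS2, 2.30 for HAS3, -1.16 for HYAL1 and -1.56 for VCAN. It was 0.84 for GFPT2, 2.32 for LAYN, -4.63 for TNFAIP6, -1.62 for ADAMTS9, -7.24 for ESRP1 and -3.59 for ESRP2. The highest adjusted p among these was 0.000243, that of GFPT2.

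For NCI-H358 minus HCC827, the difference was -1.25 for HYAL1 and -0.50 for HYAL2. It was -1.44 for GFPT2, -2.08 for LAYN, -5.70 for TNFAIP6, 0.95 for ADAMTS9 and -2.25 for ESRP1. The highest adjusted p among these was 0.0149, that of ADAMTS9.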

How the results depend on the processing

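No paired analysis was possible because the labels carry no replicate numbers that link parental and mesenchymal arrays. The counts of members and pathway genes called stayed within 1.5 times the values reported with a separate fit per line, an intensity trend, robust variance, the methods' t-test, the dim filter and median centring, each where it gives the comparison. The methods' general t-test gave 4, 3 and 3 members in A549, HCC827 and NCI-H358 at an unadjusted p below 0.05. After Benjamini-Hochberg adjustment it gave 3 in each. The study itself used limma for the arrays. The dim filter kept 12076 genes and removed HAS1, HYAL3 and HAPLN1.

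Stricter thresholds moved counts. At an adjusted p below 0.01, 4 members differed in level between parental NCI-H358 and A549 in place of 7. With more than a 2-fold change in addition to 0.05, 9, 11 and 8 pathway genes were called in A549, HCC827 and NCI-H358, and 1 member's change differed between NCI-H358 and HCC827. At that setting, 3 members differed in parental level for NCI-H358 against either other line, and in mesenchymal level 1 differed for HCC827 against A549, 2 for NCI-H358 against A549 and 1 for NCI-H358 against HCC827. At the study's thresholds, 3, 6 and 3 pathway genes were called, 1 member in HCC827, 0 in NCI-H358 and 0 in all 3 lines. The counts of differing changes were then 1, 1 and 0, and of differing levels 1, 1 and 0 in either state.

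With arrays centred on their median, these values below any threshold changed sign: HAPLN1 in A549 to 0.038, HAS1 in HCC827 to 0.063, HAS2 in HCC827 to 0.064, HYAL3 in NCI-H358 to 0.0065, the HAS2 difference of change between NCI-H358 and HCC827 to -0.017, and the HYAL3 mesenchymal level difference between the same lines to -0.0081. The cause was not tested.

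Leaving out each array in turn gave 2 to 4 members whose change differs between NCI-H358 and HCC827, the highest without mesenchymal NCI-H358 array 1, and 4 to 7 whose parental level differs between NCI-H358 and A549, the lowest without parental A549 array 2. HAS2, HAS3, HYAL1, HYAL2 and VCAN kept each call of their change within a line. Uncalled changes that passed without 1 array were HAS1 in A549 (mesenchymal array 1, adjusted p = 0.0152), HYAL3 in HCC827 (parental array 1, 0.0153), HAPLN1 in NCI-H358 (mesenchymal array 1, 0.0181) and LAYN in NCI-H358 (mesenchymal array 3, 0.0117). Ranges that crossed 0 within a line were, in A549, HYAL2 -0.011 to 0.067, CD44 -0.15 to 0.026, HAPLN1 -0.076 to 0.049, ESRP1 -0.065 to 0.098 and ESRP2 -0.10 to 0.21. In HCC827 they were HAS1 -0.097 to 0.057, HAS2 -0.11 to 0.11 and ADAMTS9 -0.34 to 0.14, and in NCI-H358 HAS2 -0.12 to 0.12, HYAL3 -0.12 to 0.028, CD44 -0.023 to 0.19 and LAYN -0.022 to 0.64. For differences of change they were HYAL1 -0.015 to 0.17 and CD44 -0.26 to 0.026 (HCC827 against A549), HAS1 -0.26 to 0.028 (NCI-H358 against A549), HAS2 -0.12 to 0.12 and ADAMTS1 -0.32 to 0.023 (NCI-H358 against HCC827). For parental levels they were HAPLN1 -0.12 to 0.026 (HCC827 against A549), CD44 -0.090 to 0.12 (NCI-H358 against A549) and HAS1 -0.12 to 0.030 (NCI-H358 against HCC827). For mesenchymal levels they were HAS1 -0.20 to 0.087 (NCI-H358 against A549), HAS3 -0.19 to 0.0035 and HYAL3 -0.027 to 0.090 (NCI-H358 against HCC827).

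Signals near the lower end of the arrays, as for HAPLN1, for HAS2 in HCC827 and NCI-H358 and for HYAL1 in A549 and HCC827, have no detection call. HAS1 and HYAL3, read below the median of every array, have none either.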
